A study of Mus musculus with 8 samples.

Results

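The genes described here are 9 immunoglobulin superfamily adhesion genes of sensory axons, Kirrel, Kirrel2, Kirrel3, Cntn4, Cntn2, Ncam1, L1cam, Nrcam and Chl1, which were listed by name as a family out of the 19928 genes with a usable measurement. Each of the 9 was represented by 1 transcript cluster, the array's unit for a gene, which combines probes over all exons and so does not separate isoforms. The mRNA abundance was measured in total RNA of olfactory mucosa, the sensory epithelium of the nose with the connective tissue beneath it, from 8 mice at postnatal day 3 with 1 array per mouse, on a mixed background of the 129 and C57BL/6J strains. The 4 mutants were 123Cre:Lhx2(fl/fl) mice, called cKO, in which both Lhx2 alleles were floxed and the 123Cre transgene was present. The 4 littermate controls each had 1 intact Lhx2 allele and 1 floxed allele, and controls 1 and 2 were Lhx2(fl/+) without the transgene whereas controls 3 and 4 were 123Cre:Lhx2(fl/+). Lhx2 is a LIM-homeodomain transcription factor of olfactory sensory neurons (OSNs) and of the basal cells that produce them. Cre from the 123Cre transgene starts in immature OSNs, and in a reporter strain it reached only a fraction of OSNs. From this and from in situ hybridization, the study inferred that the mutant mucosa mixed OSNs with and without Lhx2. The study made the comparison to test how losing Lhx2 in OSNs affects the expression of odorant receptors.

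OSN axons that express the same odorant receptor gather into glomeruli of the olfactory bulb, and adhesion molecules on the axon surface take part in this sorting. Kirrel2 and Kirrel3 are homophilic transmembrane adhesion molecules found on largely complementary sets of OSN axons, and the activity of the cyclic nucleotide pathway is known to raise Kirrel2 and lower Kirrel3. Contactins such as Cntn4 and Cntn2 are held in the membrane by a lipid anchor, and Cntn4 is found on a subset of OSN axons and takes part in their targeting. Ncam1 is a general OSN axon marker that can carry polysialic acid, and L1cam, Nrcam and Chl1 are the L1 family, transmembrane molecules that bind ankyrins inside the cell.

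The deposited values were log2 intensities, on which a difference of 1 is a doubling, and they spanned 2.87 to 14.96. The array medians lay between 8.82 and 8.89, and the root mean square difference between arrays of the same group ranged from 0.16 to 0.28. Lhx2 itself measured 13.03, 12.55, 13.01 and 13.02 in cKO mice 1 to 4 and 13.14, 13.09, 13.20 and 13.13 in controls 1 to 4, a difference of -0.24 (SE 0.11, adjusted p = 0.337). All cKO values of Lhx2 were below all control values, and cKO mouse 2 was the lowest. Omp, the marker of mature OSNs, averaged 12.47 ± 0.32 (SD, n = 4) in the cKO mice and 13.44 ± 0.05 (SD, n = 4) in the controls. Its difference was -0.97 (SE 0.14, adjusted p = 0.00605 by limma). The immature OSN marker Gap43, found in growth cones, differed by -0.29 (SE 0.12, adjusted p = 0.268), and Emx2, the other homeobox gene of the study, by -0.04 (adjusted p = 0.756). The 6 tested sustentacular cell markers averaged 12.23 to 12.35 in all 8 mice, so that markers of the labelled tissue were present throughout. Titles of the arrays open with A or B, a mark that the labels leave unexplained, and B stands on cKO mouse 2 and on controls 1 and 2. Among the controls, letter and genotype therefore cannot be told apart.

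Of the 9 adhesion genes, Kirrel3 was the only one to pass an adjusted p of 0.01, and it fell. Over all genes tested, 412 were called lower in cKO mice at this threshold, 2.07% of the total, and 12 were called higher, 0.0602% of the total. At an adjusted p under 0.05, Kirrel3 and Kirrel2 were called lower, against 5.17% of all genes. At an unadjusted p under 0.05, 5 of the 9 were lower and 0 were higher, against 9.87% and 5.13% of all genes. Every cKO value was below every control value for 4 of the 9 (Kirrel3, Kirrel2, Cntn4 and Ncam1), compared with 8.43% of all genes, and 0 of the 9 had every cKO value above every control value, compared with 3.18% of all genes. The median difference of the 9 genes was -0.17, beside 0.03 for all genes. The 9 genes were chosen with earlier results of these data known, so their shares are not those of an independent sample. In bulk tissue, fewer cells of a type and less mRNA per cell cannot be told apart. The 8 arrays came from separate mice, and the p-values measure the spread between these mice.

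**Figure D1:**
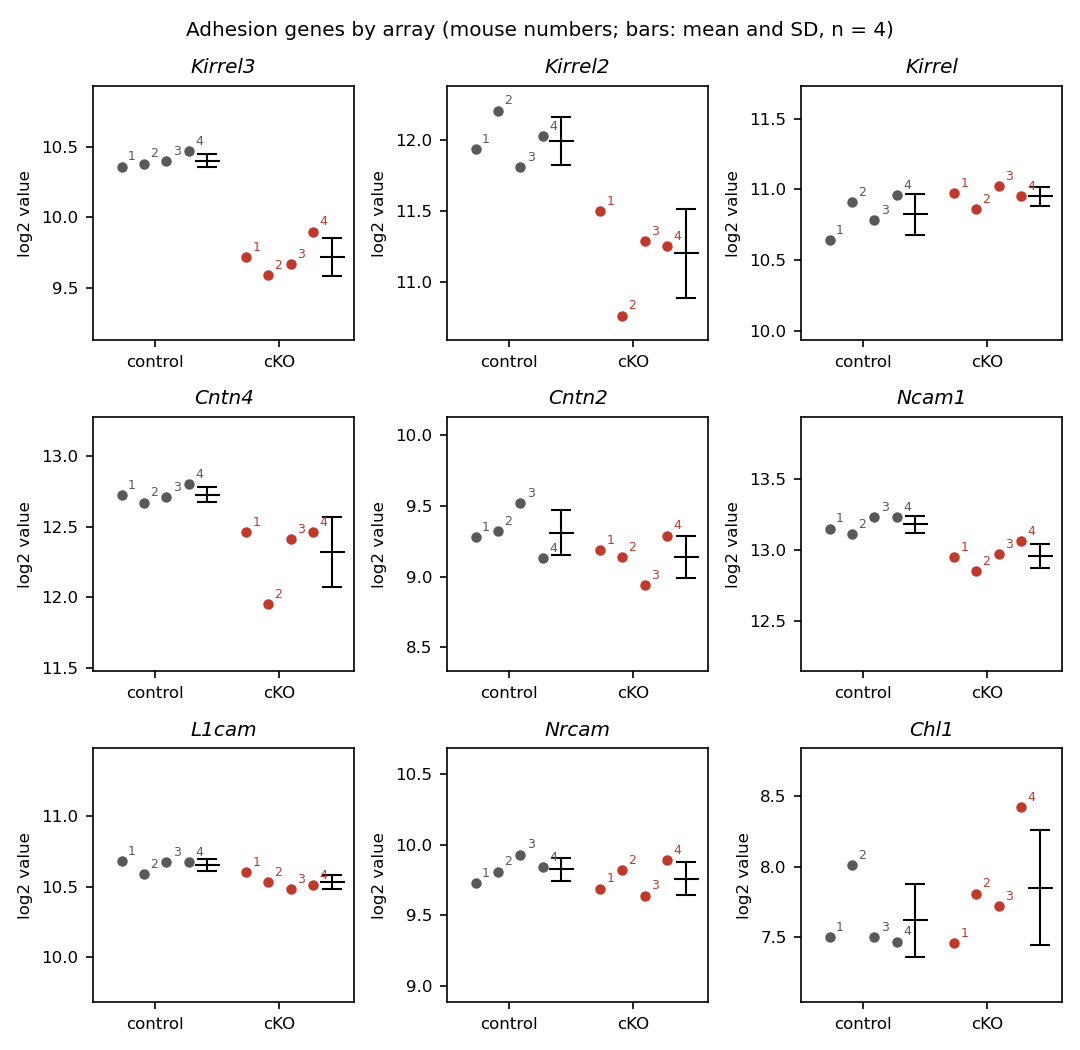
The log2 value of each adhesion gene is plotted for each mouse, with the mouse number beside the point and the group mean and SD (n = 4) to its right, and every panel spans the same log2 range. The groups are apart for Kirrel3, Kirrel2, Cntn4 and Ncam1 and overlap for the other 5 genes, and cKO mouse 2 is the lowest point for Kirrel2 (10.76) and Cntn4 (11.95).

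Kirrel3 measured 9.72, 9.59, 9.67 and 9.90 in cKO mice 1 to 4 and 10.36, 10.38, 10.40 and 10.47 in controls 1 to 4. The 4 controls lay within 0.11 of each other and the highest cKO value was 0.46 below the lowest control. The difference was -0.68 (SE 0.07, 95% interval -0.83 to -0.53), or 62.3% of the control level. The limma test gave it an adjusted p of 0.00207, and Kirrel3 ranked 36 among all genes by p. The size was steady when each mouse was left out in turn, from -0.74 to -0.64, and the call was kept in 7 of the 8 fits. The per-gene test of the study's methods, which shares no variance between genes, gave an adjusted p of 0.0305 and so ended the call. Without control 1 the difference was -0.70 and the adjusted p 0.0111. Within letter A the difference was -0.67 (adjusted p = 0.0124) and within letter B it was -0.78, without a test. Against the Lhx2(fl/+) controls alone Kirrel3 differed by -0.65 (adjusted p = 0.0435) and against the 123Cre:Lhx2(fl/+) controls alone by -0.72 (adjusted p = 0.0399), with 2 controls in each fit.

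Kirrel2 had the largest difference of the 9 genes and a wider spread. It measured 11.50, 10.76, 11.29 and 11.25 in cKO mice 1 to 4 and 11.94, 12.21, 11.81 and 12.03 in controls 1 to 4. The groups did not overlap, and cKO mouse 2 was 0.49 below the next cKO mouse. The difference was -0.79 (SE 0.15, 95% interval -1.14 to -0.45), or 57.7% of the control level, and its adjusted p of 0.0184 missed the threshold. Without cKO mouse 2 the difference shrank to -0.65, but the spread shrank too and the gene passed (adjusted p = 0.00765). Within letter A it was -0.57 (adjusted p = 0.0471) and within letter B, where the only cKO mouse is mouse 2, it was -1.32.

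Kirrel, the third member of the family and best known as a partner of nephrin in the kidney filter, did not follow the others. It measured 10.97, 10.86, 11.02 and 10.95 in the cKO mice and 10.64, 10.91, 10.78 and 10.96 in the controls. The groups overlapped, with a difference of 0.13 (SE 0.08, 95% interval -0.04 to 0.30, adjusted p = 0.497), so that a decrease of the size seen for Kirrel2 or Kirrel3 lay outside its interval. The change within each mouse could be compared between family members directly, by subtracting one log2 value from the other. Kirrel3 minus Kirrel was lower in the cKO mice by -0.81 and Kirrel2 minus Kirrel by -0.92, and for each the exact permutation p was 0.0286, the smallest that 4 mice against 4 allow. Over the 8 pairs of related genes compared, the adjusted p of these 2 was 0.114, and 0 of the 8 pairs passed 0.05. At this smallest p, passing would have required at least 5 of the 8 pairs to reach it, so the missed threshold says little about these pairs. Kirrel3 and Kirrel2 differed in their change by 0.11 (exact p = 0.543), with within-group SDs of that difference of 0.28 in cKO mice and 0.18 in controls. Both genes were lower in all 4 cKO mice than in any control. Neural activity is known to move the 2 genes in opposite directions, but it was not measured, and its part in these values was not tested.

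**Figure D2:**
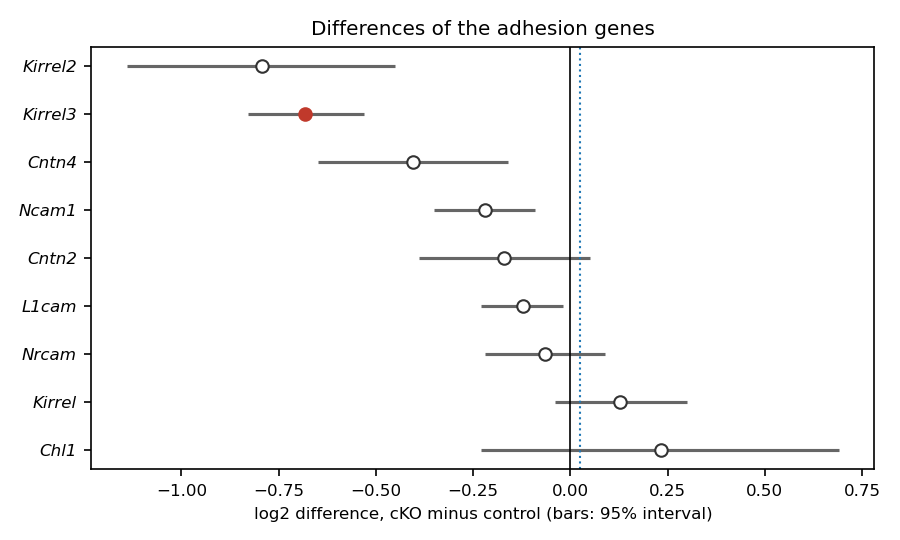
The difference of each adhesion gene between the 4 cKO and 4 control mice is plotted on the log2 scale with its 95% interval, with the filled point marking an adjusted p under 0.01 and the dotted line the median of all genes (0.03). The intervals of Kirrel2, Kirrel3, Cntn4, Ncam1 and L1cam lie below 0, and those of Cntn2, Nrcam, Kirrel and Chl1 include 0.

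The promoters of Kirrel2, Kirrel and Cntn4 are shown because these genes went with and against Kirrel3 and because Lhx2 is a homeodomain protein, a class that binds sites with a TAAT core. RefSeq windows of assembly GRCm38.p6 were at hand for 7 of the 9 genes (9 windows), and Kirrel3 and Ncam1 were not among them. Each sequence is the 250 bases before a transcription start, read 5′ to 3′ along the gene, and capitals mark every match to TAATNA on either strand, where N is any base, with a site read on both strands counted once. Of 32851 such windows over all genes, 24.3% hold at least 1 match. The first is Kirrel2 at chr7:30457516-30457765 (minus strand), the second Kirrel at chr3:87174538-87174787 (minus strand) and the third Cntn4 at chr6:106118692-106118941 (plus strand).
Kirrel2: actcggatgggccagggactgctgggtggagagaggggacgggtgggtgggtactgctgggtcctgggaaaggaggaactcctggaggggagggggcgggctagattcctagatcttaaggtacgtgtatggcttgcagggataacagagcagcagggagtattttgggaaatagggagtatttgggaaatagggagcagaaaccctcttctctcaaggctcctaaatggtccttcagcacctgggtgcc
Kirrel: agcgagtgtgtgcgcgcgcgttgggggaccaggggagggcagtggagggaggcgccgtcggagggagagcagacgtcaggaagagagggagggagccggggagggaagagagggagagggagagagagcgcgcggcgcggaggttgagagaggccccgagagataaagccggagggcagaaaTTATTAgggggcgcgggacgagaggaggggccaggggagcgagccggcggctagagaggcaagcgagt
Cntn4: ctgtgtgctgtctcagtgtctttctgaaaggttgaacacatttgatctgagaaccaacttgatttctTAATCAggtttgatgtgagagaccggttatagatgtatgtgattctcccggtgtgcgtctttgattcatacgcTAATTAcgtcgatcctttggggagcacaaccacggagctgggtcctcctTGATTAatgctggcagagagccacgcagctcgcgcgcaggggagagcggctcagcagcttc
The Kirrel2 window, of the gene with the largest difference, holds 0 matches, and the Kirrel window, of a gene that was not lower, holds 1. The Cntn4 window holds 3, the most among the 9 windows, and a second Cntn4 window that overlaps it holds 1, which is the first of these 3 sites again. The windows of Cntn2, L1cam, Nrcam and Chl1 hold 0. A second set of letters, CCCNNGGG, taken as a form of the site of the Ebf factors of OSNs, was searched on both strands, and its letters cannot overlap those of the first motif. It was found 1 time in the Chl1 window and in 0 of the other 8, and it is present in 11.8% of all windows. A match is a description of the letters and not a bound site.

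Cntn4, the contactin of a subset of OSN axons, was lower in all cKO mice without passing the threshold. It measured 12.46, 11.95, 12.41 and 12.46 in cKO mice 1 to 4 and 12.72, 12.67, 12.71 and 12.80 in controls 1 to 4. Mice 1, 3 and 4 of the cKO group lay within 0.05 of each other and cKO mouse 2 was 0.46 below them. The difference was -0.41 (SE 0.11, 95% interval -0.65 to -0.16), or 75.5% of the control level (adjusted p = 0.0778). Without cKO mouse 2 it was -0.28 and the adjusted p was 0.0109, just outside the threshold, with the title letter as a block it was -0.47 (adjusted p = 0.0167), and within letter A it was -0.31 (adjusted p = 0.0451). Within letter B it was -0.75, from cKO mouse 2 alone.

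Cntn2, a contactin of outgrowing axons also known as TAG-1, measured 9.19, 9.14, 8.94 and 9.29 in the cKO mice and 9.28, 9.32, 9.52 and 9.13 in the controls. The groups overlapped, and control 4 was below 3 of the 4 cKO mice. The difference was -0.17 (SE 0.10, 95% interval -0.39 to 0.05, adjusted p = 0.485). The change of Cntn4 minus that of Cntn2 was -0.23 (exact p = 0.257, adjusted over the pairs 0.381), so that unequal change of the 2 contactins was not shown.

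Cntn4 and Chl1 lie side by side with further family members on chromosome 6, where the protein-coding order in RefSeq is Cntn3, Chl1, Cntn6 and Cntn4. Cntn4 was the only 1 of the 4 neighbours with a negative difference. Cntn3 differed by 0.37 (SE 0.11, adjusted p = 0.103), with 7.34 to 7.58 in the cKO mice and 6.84 to 7.32 in the controls, and all cKO values were above all control values. Cntn6 differed by 0.31 (adjusted p = 0.312) and Chl1 by 0.23 (adjusted p = 0.677), each with overlapping groups. Cntn3 and Cntn6 had mean levels under the lower quartile of all genes (7.52), where background signal makes up more of a value. Kirrel2 lies between Aplp1 and Nphs1 on chromosome 7. Aplp1, a relative of the amyloid precursor protein, differed by -0.26 (adjusted p = 0.0911) with all cKO values below all control values, and Nphs1, which encodes nephrin, by -0.23 (adjusted p = 0.258).

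Ncam1 was lower by a small and even amount. It measured 12.95, 12.85, 12.97 and 13.06 in cKO mice 1 to 4 and 13.15, 13.11, 13.23 and 13.23 in controls 1 to 4, with no overlap. The difference was -0.22 (SE 0.06, 95% interval -0.35 to -0.09), or 85.9% of the control level (adjusted p = 0.0587). Leaving out each mouse in turn gave -0.25 to -0.18 and adjusted p-values of 0.0482 to 0.164, and with the title letter as a block it was -0.25 (adjusted p = 0.0161). Its paralog Ncam2, which is found on the OSN axons of part of the epithelium, measured 10.74, 9.30, 10.90 and 10.93 in the cKO mice and 11.03, 11.23, 10.96 and 11.24 in the controls. All cKO values of Ncam2 were below all controls, but the distance came mainly from cKO mouse 2, and the difference of -0.65 had an SE of 0.33 (adjusted p = 0.428). The change of Ncam1 minus that of Ncam2 was 0.43 (exact p = 0.257). Of the 2 enzymes that add polysialic acid to NCAM, St8sia4 differed by 0.22 (adjusted p = 0.108), with all cKO values above all control values, and St8sia2 by -0.04 (adjusted p = 0.839).

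In the L1 family 0 genes passed. L1cam measured 10.60, 10.53, 10.48 and 10.51 in the cKO mice and 10.68, 10.59, 10.67 and 10.67 in the controls, where control 2 stood 0.09 below the closest other control and overlapped cKO mouse 1. The difference of L1cam was -0.12 (SE 0.05, 95% interval -0.23 to -0.02), or 91.8% of the control level (adjusted p = 0.224). Nrcam measured 9.69, 9.82, 9.64 and 9.89 in the cKO mice and 9.73, 9.81, 9.93 and 9.84 in the controls. The Nrcam groups overlapped through most of their range, with a difference of -0.07 (SE 0.07, 95% interval -0.22 to 0.09, adjusted p = 0.730).

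Chl1 varied between mice more than between groups. It measured 7.46, 7.81, 7.72 and 8.42 in cKO mice 1 to 4 and 7.50, 8.01, 7.50 and 7.47 in controls 1 to 4. The high values were those of cKO mouse 4 and control 2, and the other 6 mice lay between 7.46 and 7.81. The difference was 0.23 (SE 0.20, 95% interval -0.23 to 0.69, adjusted p = 0.677), and it was 0.04 without cKO mouse 4 and 0.36 without control 2. Chl1 minus Nrcam differed between the groups by 0.30 (exact p = 0.257), L1cam minus Chl1 by -0.35 (exact p = 0.286) and L1cam minus Nrcam by -0.06 (exact p = 0.543). Ntm and Opcml, lipid-anchored adhesion molecules of the IgLON family, were also highest in cKO mouse 4. Ntm was 8.19, 8.53, 8.57 and 9.34 in the cKO mice and 7.79, 8.46, 7.83 and 8.17 in the controls, and Opcml was 8.76, 9.01, 9.05 and 9.85 against 8.50, 9.15, 8.62 and 8.83. A list of 19 genes of forebrain and olfactory bulb neurons, written after these values were seen and of which 17 were tested, had array means of 8.09, 8.12, 8.22 and 8.66 in cKO mice 1 to 4 and 8.05 to 8.19 in the controls, so that cKO mouse 4 was the highest in it as well. Of that list 0 genes passed the threshold, the median difference was 0.23, and its part in the Chl1 values was not tested. The genes whose values over the 8 arrays were most like those of Chl1, also looked up after the values were seen, were Cdh8 (r = 0.991), Bend6 (r = 0.989) and Gabrg3 (r = 0.981), and all 3 were highest in cKO mouse 4.

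**Figure D3:**
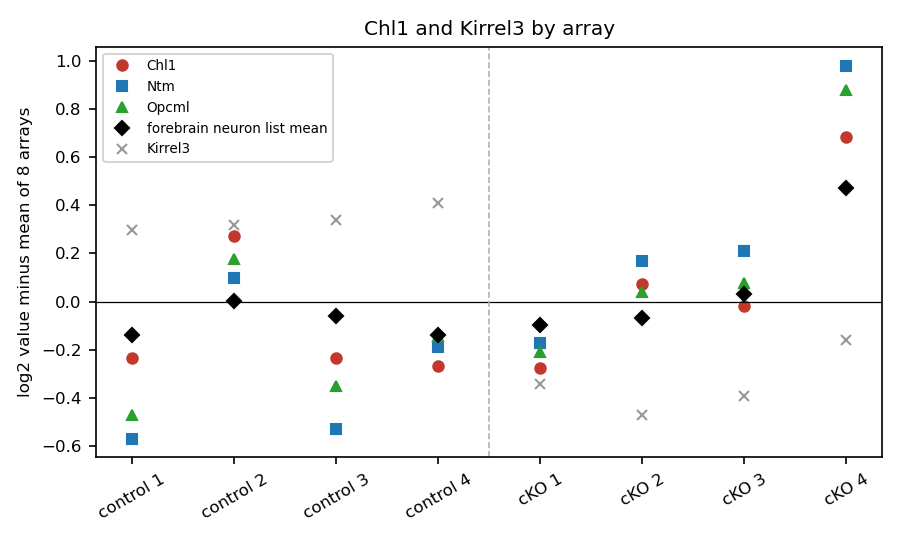
The log2 value of each mouse minus the gene's mean over the 8 mice is plotted for Chl1, Ntm, Opcml, the mean of the forebrain and olfactory bulb neuron list, and Kirrel3, with controls left of the dashed line and cKO mice right of it. Chl1, Ntm, Opcml and the list mean are highest in cKO mouse 4, whereas Kirrel3 is above its mean in all 4 controls and below it in all 4 cKO mice.

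The adhesion genes were set beside the mRNA of OSN markers in each mucosa, which is not a count of cells. The study described the number of mature OSNs in these mutants as slightly reduced. The 18 markers of mature OSNs averaged 11.51, 10.93, 11.45 and 11.38 in cKO mice 1 to 4. In the controls they averaged 11.97 to 12.04, and the mean difference was -0.69. Of the 18, 6 were called lower, compared with 2.07% of all genes. Every marker had all cKO values below all control values, compared with 8.43% of all genes. The 17 markers of immature OSNs, which include Gap43 and Dcx, averaged 11.34 to 11.50 in the cKO mice and 11.48 to 11.55 in the controls, with a mean difference of -0.07, and Stmn4 (-0.30, adjusted p = 0.00447) was the 1 marker called. The differences of Kirrel3 and Kirrel2 were thus close in size to the mean of these 18 mature markers. Those of L1cam and Nrcam were close to the mean of the 17 immature markers. The study's own, much longer list of mature OSN mRNAs had a smaller average decrease in these mutants. The decreases of Kirrel3 and Kirrel2 were larger than that average.

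With the mean of the mature OSN list subtracted from each array, Kirrel3 became -1.78, -1.34, -1.78 and -1.48 in the cKO mice and -1.61, -1.63, -1.61 and -1.57 in the controls. The cKO values now lay on both sides of the controls, and the difference was 0.01 (SE 0.17, adjusted p = 0.962). The difference of Kirrel2 on this scale was -0.10 (SE 0.17, adjusted p = 0.543), also with overlap. For Cntn4 it was 0.29 (adjusted p = 0.0918), with every cKO value (0.95 to 1.08) above every control value (0.67 to 0.75). Ncam1 (0.47), Cntn2 (0.52), L1cam (0.57), Nrcam (0.62), Kirrel (0.82) and Chl1 (0.92) were called higher relative to the list. With the mature list subtracted, limma gave every adhesion gene the same SE of 0.17. Their own SDs differed, with 0.06 in cKO mice and 0.04 in controls for Cntn4 and 0.51 and 0.26 for Chl1. The SEs and p-values on this scale therefore do not measure the spread of a single gene. This subtraction raised the median of all genes by 0.72 and called 18737 genes, since it adds the same amount to every gene of an array, and so a call on this scale says little about a single gene. The result beside mature OSNs also rests on which markers stand for them: a list with a smaller mean difference would leave Kirrel3 and Kirrel2 lower by the remainder. Without the 5 cyclic nucleotide genes in it, a choice made after seeing the data, the list had a mean difference of -0.61, and Kirrel3 then differed by -0.08 (adjusted p = 0.645) and Kirrel2 by -0.19 (adjusted p = 0.247). The adhesion genes again shared 1 SE (0.159). With the mean of the immature OSN list subtracted, which raised the median of all genes by 0.10, Kirrel3 differed by -0.61 (SE 0.06, adjusted p = 0.000558) and Kirrel2 by -0.72 (SE 0.13, adjusted p = 0.00878), and both passed. Cntn4 differed by -0.33 (adjusted p = 0.0580) and Ncam1 by -0.15 (adjusted p = 0.192), and the remaining 5 genes by -0.10 to 0.30 without passing.

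**Figure D4:**
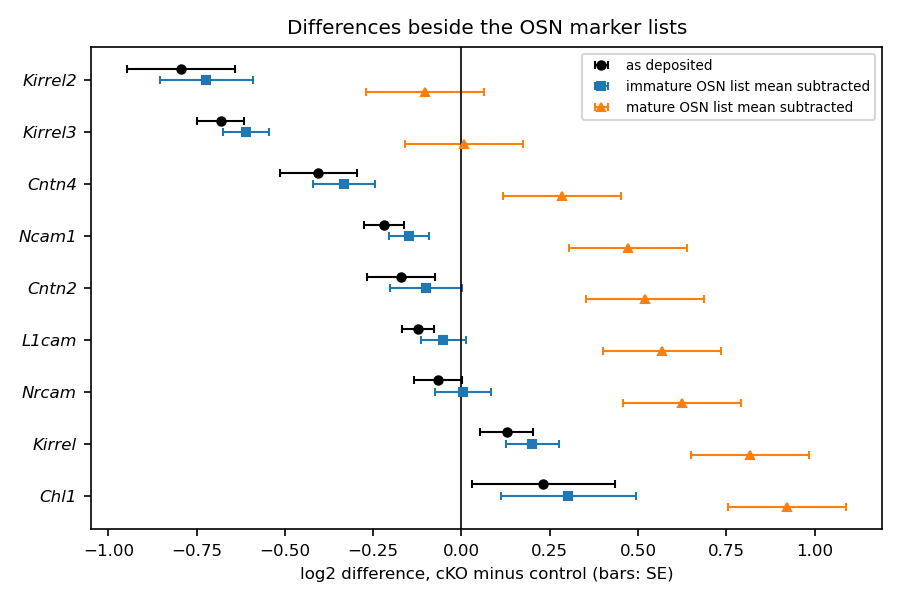
The difference of each adhesion gene with its SE is plotted on the log2 scale as deposited, after subtracting the mean of the immature OSN markers in each array, and after subtracting the mean of the mature OSN markers. Kirrel2 and Kirrel3 stay below 0 beside the immature list (-0.72 and -0.61) and lie near 0 beside the mature list (-0.10 and 0.01), where the other 7 genes lie above 0. Beside the mature list every gene has the same SE (0.167), which does not measure its own spread.

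Among markers of other cells that could add adhesion mRNA, 0 genes passed the threshold in either direction. Of the ensheathing glia list, the glia that wrap OSN axons and express Ncam1 and L1cam, 8 of 10 genes were tested and 0 passed, with array means of 9.84 to 9.99 in the cKO mice and 9.61 to 10.04 in the controls. The count of called genes was also 0 for OSN progenitors (7 tested), horizontal basal cells (4), sustentacular cells (6), vomeronasal neurons (3), endothelium (6), cartilage, bone and muscle (7), macrophages (6) and blood (2). Their medians ranged from -0.32 for blood to 0.13 for OSN progenitors. Below the threshold, 4 of the 7 OSN progenitor genes were higher and 1 was lower at an unadjusted p under 0.05. The shares over all genes were 5.13% and 9.87%. Kit (0.16, adjusted p = 0.0715), Neurog1 (0.16, adjusted p = 0.178) and Neurod2 (0.13, adjusted p = 0.243) had every cKO value above every control value, compared with 3.18% of all genes. In 2 of the 7 every cKO value was below every control value, compared with 8.43% of all genes. These 2 were Insm1 (-0.16, adjusted p = 0.290) and Lhx2 (-0.24, adjusted p = 0.337). Lhx2 is the gene floxed in these mice, so its decrease is not a measure of progenitor content. The counts and the median of this list include it. In the forebrain and olfactory bulb neuron list, written after the values were seen, 4 of 17 genes were higher at an unadjusted p under 0.05. In 3 of the 17 every cKO value was above every control value. The shares over all genes were 5.13% and 3.18%. The part of these cells in the adhesion gene values was not tested.

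Beyond the 9 genes, genes of the same families and pathway were read from lists. Of 7 other genes of the Kirrel, NCAM, L1 and contactin families, 21 other neural immunoglobulin adhesion genes and 21 partners and enzymes (49 in all, from lists of 7, 22 and 22), limma called 0 at an adjusted p under 0.01, where 2.07% of all genes were called lower and 0.0602% higher, shares at which few calls could arise among 49. At an unadjusted p under 0.05, 5 were lower and 6 higher, against 9.87% and 5.13% of all genes, and the median difference was 0.01. The nearest to a call was Cntnap2, a transmembrane partner of Cntn2, with 9.32, 9.35, 9.31 and 9.36 in the cKO mice and 8.92, 8.95, 8.99 and 9.18 in the controls. All cKO values of Cntnap2 were higher, by 0.32 (SE 0.06, adjusted p = 0.0173), in the opposite direction to Cntn2. Cadm3, an adhesion molecule of neurons, differed by -0.16 (adjusted p = 0.106), Nectin1 by 0.18 (adjusted p = 0.133), and Bace1, the protease that cleaves Chl1, by -0.12 (adjusted p = 0.332).

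The cyclic nucleotide signalling genes, whose activity is known to set Kirrel2 and Kirrel3 levels, were lower. Of 6 listed genes 5 were tested, and every one had all cKO values below all control values, compared with 8.43% of all genes. Adcy3, the adenylyl cyclase of OSN cilia, fell from 12.06 to 12.24 in the controls to 11.01 to 11.46 in the cKO mice (-0.86, SE 0.09, adjusted p = 0.00267), and the channel subunit Cnga4 fell from a mean of 11.09 to 9.48 (SE of the difference 0.21, adjusted p = 0.00434). Cnga2 (-0.62, adjusted p = 0.0133), Cngb1 (-0.87, adjusted p = 0.0210) and Gnal (-0.59, adjusted p = 0.0263) did not pass. The median of the 5 was -0.86. These 5 genes are also among the mature OSN markers, so this list and that one are not separate measurements. Their part in the Kirrel2 and Kirrel3 values was not tested.

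**Figure D5:**
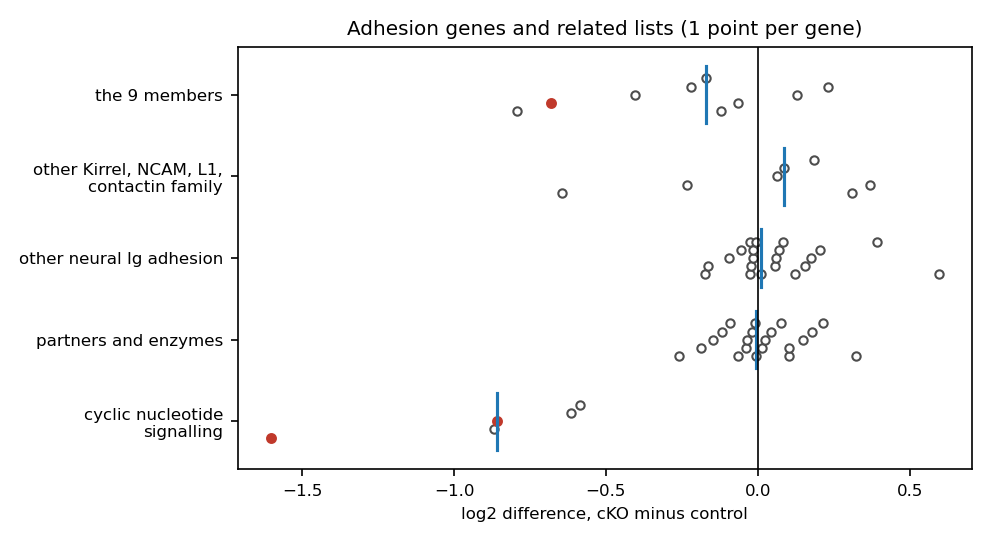
Each point is the log2 difference of 1 gene between cKO and control mice, in the 9 adhesion genes and in the related lists, with filled points for an adjusted p under 0.01 and a vertical bar at each list's median. The 9 genes have a median of -0.17, the lists of other family members, other neural adhesion genes and partners lie around 0 (0.09, 0.01 and -0.01), and the cyclic nucleotide genes lie at -0.86.

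The genes most like Kirrel3 over the 8 arrays, by Pearson's r among 17663 named genes other than odorant receptors, were Ifit2 (r = 0.996), Aplp2 (r = 0.993) and Efna3 (r = 0.992). These 8 points fall into the cKO and control groups, so the r values describe mostly the step between groups. Ifit2, an interferon-induced gene, was lower in all 4 cKO mice than in any control (-0.67, adjusted p = 0.00265). Efna3, an ephrin ligand of axons, was 12.06 to 12.25 in the cKO mice and 12.83 to 12.98 in the controls (-0.75, adjusted p = 0.000752). Aplp2, a relative of the amyloid precursor protein, differed by -0.23 (adjusted p = 0.0103) and just missed the threshold.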

How the data were processed

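Total RNA of olfactory mucosa from 8 mice was hybridised to Affymetrix Mouse Gene ST arrays. The deposited table holds log2 values for 28312 transcript clusters in every array, which the authors made with Affymetrix Expression Console per the submitters' processing notes. Software version, background correction, summarization and genome build were not given in the sources used here. Background signal under each value makes changes of dim genes look smaller, and the number of arrays limits the precision (median SE of a difference 0.07).

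By the platform annotation, 21759 clusters had 1 symbol, 1605 had several and 4948 had none. Clusters with several symbols or none were left out, and for the 994 genes with several clusters the one with the highest mean was kept. Names were checked by Entrez identifier against RefSeq GRCm38.p6 (21668 matched, 0 changed).

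Differences were tested with limma 3.58.1 in R 4.3.3 (lmFit and eBayes, two-sided, 4 against 4 arrays), with Benjamini-Hochberg adjustment over 19928 genes and a threshold of 0.01. Unless stated otherwise, each adjusted p comes from this test. The script recovered known changes when tested on simulated data. Pairs of genes were compared by enumerating all 70 arrangements of the arrays (exact permutation test, two-sided, scipy 1.17.1), adjusted over the 8 pairs. The study's methods used t-tests with a false discovery rate, and scaled receptor values to the remaining mature OSNs with a published mRNA list. That list was not used here, and a much shorter list of 18 mature markers stood in for it, so the correction is not the study's. Other normalizations, filters, thresholds, control genotypes and title letters were tried as alternatives, and each mouse was left out in turn.

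The members and lists were chosen with earlier results of these data known. Named genes were the 9 members, Ncam2, Lhx2, Emx2, Omp, Gap43, up to 4 genes with the smallest p in each other list, and the 3 genes most like Kirrel3. St8sia2, Opcml, the genes most like Chl1 and a further cyclic nucleotide gene were named after their values were seen. Replicate numbers follow accession order.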

Additional observations from a re-analysis of the deposited data

Results flagged for a closer look

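In 3 of the 18 sets of 4 values (9 genes in 2 groups), 1 mouse lay far from the other 3, with a gap to the nearest value that took up most of the whole range (Dixon's criterion at 95%). Chance alone gives about 1 such set in 20. Cntn4 in cKO mouse 2 was 11.95, which was 0.46 below the next cKO mouse (a gap of 0.91 of the range). Chl1 in control 2 was 8.01, 0.50 above the next control (0.935 of the range). L1cam in control 2 was 10.59, 0.09 below the next control (0.891 of the range). Both mice carry title letter B. The cKO mouse 2 also had the lowest Lhx2 value (12.55). Its mean of the mature OSN markers was 10.93, against 11.38 to 11.51 in the other cKO mice. With that mean subtracted, its Cntn4 value was 1.02, within the range of the other cKO mice (0.95 to 1.08). The part of the letter or of these markers in the flagged values was not tested. The groups of Cntn4 did not overlap with or without cKO mouse 2.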

How the results depend on the processing

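No paired analysis was possible because the replicate numbers were given in accession order and pair nothing, and the labels do not tie mice to litters. With the title letter as a block, 617 genes were called, and Kirrel3 remained the 1 adhesion gene called (-0.71, adjusted p = 0.00132). The count of all genes called (424) became 1, a gene higher in cKO mice, by a per-gene t-test with adjustment. This is the kind of test named in the study's methods, but it was run without the study's scaling to mature OSNs. At its unadjusted p under 0.01 the count was 1359. By limma the count was 1104 at an adjusted p under 0.05 and 249 with every transcript cluster kept. It was 0 against the Lhx2(fl/+) controls alone and 0 against the 123Cre:Lhx2(fl/+) controls alone (limma, 2 controls each). With the mature OSN list subtracted it was 18737 (18514 without its cyclic nucleotide genes, chosen after seeing the data). With 1 mouse left out it was 30 to 676. Of the adhesion genes (1 called), the count was 0 by the adjusted t-test, 3 at its unadjusted p under 0.01, 2 at an adjusted p under 0.05, 0 within letter A, 0 against either control genotype, 6 with the mature (5 without cyclic nucleotide genes) and 2 with the immature list subtracted, and 0 to 2 with 1 mouse left out. Of the other adhesion genes and partners (0 called), it stayed 0 by the adjusted t-test and was 2 by the unadjusted t-test, 1 at 0.05, 47 with the mature (46 without cyclic nucleotide genes) and 1 with the immature list subtracted. Of the pairs, 0 passed after quantile normalization, the 1 alternative with a test, and 7 arrays cannot give an exact p under 0.0571. Subtracting the mature list turned the sign of Kirrel3 (0.008), Ncam1 (0.47), L1cam (0.57), Cntn4 (0.29), Cntn2 (0.52) and Nrcam (0.62). Without the cyclic nucleotide genes it turned Ncam1 (0.39), L1cam (0.48), Cntn4 (0.20), Cntn2 (0.44) and Nrcam (0.54). Nrcam also turned sign with the immature list subtracted (0.005) and within letter B (0.053). Over the 18 alternatives that kept an adjusted p of 0.01 and subtracted no list, Kirrel3 passed in 13, with adjusted p-values of 0.000795 to 0.0435. The cause of these shifts was not tested, and the fits with fewer arrays also held fewer mice.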
